A study of Mus musculus with 4 samples.

Results

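Autophagy genes were followed in the heart ventricles of mice that lost Hnrnpu in striated muscle. The list named 40 genes of the autophagy machinery and of the receptors that bring cargo to it, and a gene was used when a row of the authors' table carried its symbol exactly, with the row of the highest mean level where a symbol was repeated. By that rule 39 of the 40 were found among the 36814 rows of the table, and all 39 were among the 24454 rows that carry an adjusted p. RNA was taken at postnatal day 14 from ventricles, with the atria removed, of 2 controls labelled wild type and 2 Hnrnpu mutants. The mutants came from a cross of a conditional Hnrnpu allele with the Ckmm-Cre transgene, in which the muscle creatine kinase promoter drives the recombinase. By this design cells of the ventricle other than striated muscle should keep the gene, which was not measured by cell type. Each group held 1 male and 1 female on a C57BL/6 & 129 S4 mix. The labels do not say whether the controls carry the floxed allele or the Cre transgene, and they do not say whether animals were littermates.

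Autophagy encloses cytoplasm in a double membrane, the autophagosome, and delivers it to the lysosome for breakdown. The ULK1 kinase complex starts the process, the class III PI3-kinase complex marks the forming membrane with a lipid, and conjugation enzymes attach ubiquitin-like proteins of the LC3 and GABARAP families to it. Cargo receptors such as p62, the product of Sqstm1, bind both the ubiquitin-tagged cargo and the LC3 or GABARAP proteins. In the heart the pathway is known for clearing damaged mitochondria and protein aggregates and for supplying nutrients around birth.

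Levels are RPKM, that is reads scaled by transcript length and by the number of mapped reads, and the table gives 1 value by the authors for each group, so no value per animal and no SD can be given. The authors' p-value per gene compares the 2 mutants with the 2 controls. The word called is kept for a deposited adjusted p under 0.05. For genes with p below 0.5 a 95% interval of the log2 fold change was derived from the error that the fold and the p-value imply together if the estimate is taken as normal, and it is approximate. Hnrnpu itself was listed at 32.7 RPKM in the controls and 15.2 RPKM in the mutants, and with p = 0.0613 and adjusted p = 0.438 in the authors' deposited table it was not called. All 10 cardiomyocyte markers were at or above 16.3 RPKM in both groups. Of the 5 atrial markers, Bmp10 was listed at 0.0457 RPKM in the controls and 0 in the mutants, but the other 4 were present, at 3.74 to 27.9 RPKM in the controls and 1.66 to 17.7 RPKM in the mutants, led by Myl7 in both. Low values of small RNA genes of known length step by the worth of 1 read. If the group value is the mean of 2 libraries scaled by mapped reads, these steps correspond to about 29200000 and 24900000 reads in the control libraries and 76400000 and 55700000 reads in the mutant libraries.

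Of the 39 autophagy genes, Gabarapl1 and Sqstm1, 2 in all, rose in the mutants, whereas 37 did not pass the test and no member fell. The share called higher was 5.13% of the members, against 2.03% of all rows tested and 3.35% of rows with a mean of at least 1 RPKM. None of the members was called lower, against 1.48% of all rows and 1.93% of rows with a mean of at least 1 RPKM. At an unadjusted p below 0.05 the authors' deposited table lists 3 members as higher and 0 as lower, against 6.4% and 6.2% of all rows. With 2 genes called, the share of members called does not separate the list from the table as a whole. The called genes code for a GABARAP protein and for a receptor that binds proteins of that kind, and the other 37 lay closer to control.

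The promoters of the called genes are shown first, with that of Atg3, which codes for the enzyme that attaches lipid to LC3, as an uncalled member that holds a searched motif more than once. The windows run from 250 bases before to 50 bases after the RefSeq start in build GRCm38.p6, on the strand of the gene. They lie at chr6:129532942-129533241 (plus strand) for Gabarapl1, chr11:50210771-50211070 (minus strand) for Sqstm1 and chr16:45158579-45158878 (plus strand) for Atg3. Capitals mark matches on either strand to any of the 6 motifs named after the sequences.
Gabarapl1: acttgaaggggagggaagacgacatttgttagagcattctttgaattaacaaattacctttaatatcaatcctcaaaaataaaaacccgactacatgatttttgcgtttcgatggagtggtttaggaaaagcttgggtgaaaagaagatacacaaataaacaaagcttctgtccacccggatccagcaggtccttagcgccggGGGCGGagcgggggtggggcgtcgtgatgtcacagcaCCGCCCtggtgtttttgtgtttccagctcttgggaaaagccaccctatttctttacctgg
Sqstm1: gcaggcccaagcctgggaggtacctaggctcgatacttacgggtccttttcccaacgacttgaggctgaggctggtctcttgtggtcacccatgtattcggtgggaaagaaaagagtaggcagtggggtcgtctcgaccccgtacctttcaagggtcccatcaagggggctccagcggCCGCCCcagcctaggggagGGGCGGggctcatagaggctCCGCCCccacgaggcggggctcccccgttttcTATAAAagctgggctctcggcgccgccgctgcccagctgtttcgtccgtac
Atg3: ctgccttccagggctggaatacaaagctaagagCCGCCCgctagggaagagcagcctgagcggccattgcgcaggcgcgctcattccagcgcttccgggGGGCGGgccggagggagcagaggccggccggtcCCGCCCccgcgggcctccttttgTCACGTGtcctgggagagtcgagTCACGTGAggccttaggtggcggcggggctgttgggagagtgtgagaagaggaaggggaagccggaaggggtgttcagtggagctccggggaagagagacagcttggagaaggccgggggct

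A promoter window was found for 31 of the 39 members, and each share below counts genes with a match in any of their windows. For most members it was not checked whether a window lies at the main start of the gene. An E-box of the type bound by TFEB, TCACGTG, was present in 3 of the 31 (Atg3, Atg7 and Atg14), or 9.68%, against 5% of 17491 protein coding genes. In Atg3 it starts 95 and 72 bases before the start site, and the second match also reads on the other strand because the letters overlap their own reverse complement. The Atg7 window begins at chr6:114670846 in GRCm38, and the row of Atg7 begins at 114593149 in mm9. For Gabarapl1, on the same chromosome, these are 129532942 and 129483218, a smaller gap. The Atg7 window thus appears to lie inside the gene, past the start of its row, so its match is not near that start. The amino acid response element bound by ATF4, TGATGNAA, was in 0 of the 31 against 4.13% of coding genes, and the forkhead site TGTTTAC in 0 against 3.45%. The antioxidant response element bound by NRF2, TGACNNNGC, was in 4 of the 31 (Ulk2, Atg13, Map1lc3b and Tax1bp1), or 12.9%, against 14.8%. None of these 4 motifs was matched in the Gabarapl1 or Sqstm1 window, which says only that these letters are not in these 300 bases.

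Another 2 motifs were chosen after the sequences had been read. The GC box GGGCGG was matched in 22 of 31 members, or 71%, against 49.2% of coding genes, and both called genes hold it. The TATA box letters TATAAA were matched in Sqstm1 and Atg4a alone among the 31 members, or 6.45%, against 14.8% of coding genes. In Sqstm1 they begin 1 base before the RefSeq start. The windows of Gabarapl1 and Sqstm1 also differ in composition, with 46.3% and 63.3% G and C. The median of the members was 59.3%, against 56.3% for coding genes. Member windows also held more CpG pairs, a C followed by a G, with a median of 18 against 13 for coding genes. The GC box letters hold such a pair, and its share was not compared with genes of like CpG content.

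Gabarapl1, a GABARAP family protein that is conjugated to the autophagosome membrane, was listed at 5.72 RPKM in the controls and 27.4 RPKM in the mutants. The table places the gene (mm9 coordinates) on chromosome 6, plus strand, between 129483218 and 129492349. The authors' deposited table gives a fold of 4.8, p = 1.1e-05 and adjusted p = 0.00105. On the log2 scale this was a rise of 2.26, with an implied 95% interval from 1.25 to 3.27. It was the largest fold among the 39 members, and 98.4% of all rows with a mean of at least 1 RPKM had a smaller fold change. With a transcript of 1820 bases in GENCODE M21, the levels correspond to about 563 reads in the control group and 6590 reads in the mutant group, under the same assumption on the read steps.

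Sqstm1, which codes for the cargo receptor p62, was listed at 22.0 RPKM in the controls and 95.9 RPKM in the mutants. Its mm9 position is chromosome 11, minus strand, between 50012868 and 50024329. The authors' deposited table gives a fold of 4.36, p = 0.00071 and adjusted p = 0.0262. The log2 fold change was 2.12, with an implied 95% interval from 0.89 to 3.36. The implied error of Sqstm1 was 0.63 on the log2 scale, against a median of 0.52 over the 20 members for which it could be derived. The oppositely oriented gene 3010026O09Rik overlaps Sqstm1 and had 1.06 RPKM in the controls and 1.11 RPKM in the mutants. Of the 36-base words of the Sqstm1 transcript, 20.8% also occur in transcripts of 1 other gene, Mrnip, the current RefSeq symbol of 3010026O09Rik, which leaves the part of its level read from these words uncertain.

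Marker lists of 6 kinds of heart cell were read beside the rises of Gabarapl1 and Sqstm1. Over all rows, 2.03% were called higher and 1.48% lower, and 6.4% were higher and 6.2% lower at an unadjusted p below 0.05. Macrophage markers were above control in 10 of 10 genes, with summed levels of 78.5 RPKM in the controls and 226 RPKM in the mutants, none at 0, and 1 of them, Lyz2, was called (18.4 to 90.5 RPKM), with 5 higher at an unadjusted p below 0.05. Fibroblast markers were above control in 5 of 8 genes, with sums of 615 and 829 RPKM, none at 0 and none called, though 3 were higher at an unadjusted p below 0.05. Endothelial markers were above control in 2 of 8 genes, with sums of 139 and 127 RPKM, none at 0, and Vwf alone was called, or had an unadjusted p below 0.05. Mural markers were above control in 5 of 8, with a median log2 fold change of 0.05 and none at 0. Their sums of 297 and 945 RPKM differed mainly through Acta2, at 158 and 802 RPKM and not called. Tagln was called (9.76 to 42.6 RPKM), and at an unadjusted p below 0.05 Acta2 was also higher and Abcc9 lower (19.2 and 7.46 RPKM). Cardiomyocyte markers were above control in 2 of 10, with sums of 9386 and 9709 RPKM, none at 0 and none called, and Ryr2 was lower at an unadjusted p below 0.05. Atrial markers were above control in 2 of 5, with sums of 42.4 and 39.8 RPKM, Bmp10 at 0 in the mutants, Dkk3 called (3.74 to 13.6 RPKM) and Sln lower at an unadjusted p below 0.05 (6.46 and 1.66 RPKM). In bulk tissue, a change in the number of cells of a type and a change in RNA per cell cannot be told apart, and the part of these cell types in the rises of Gabarapl1 and Sqstm1 was not tested.

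**Figure D1:**
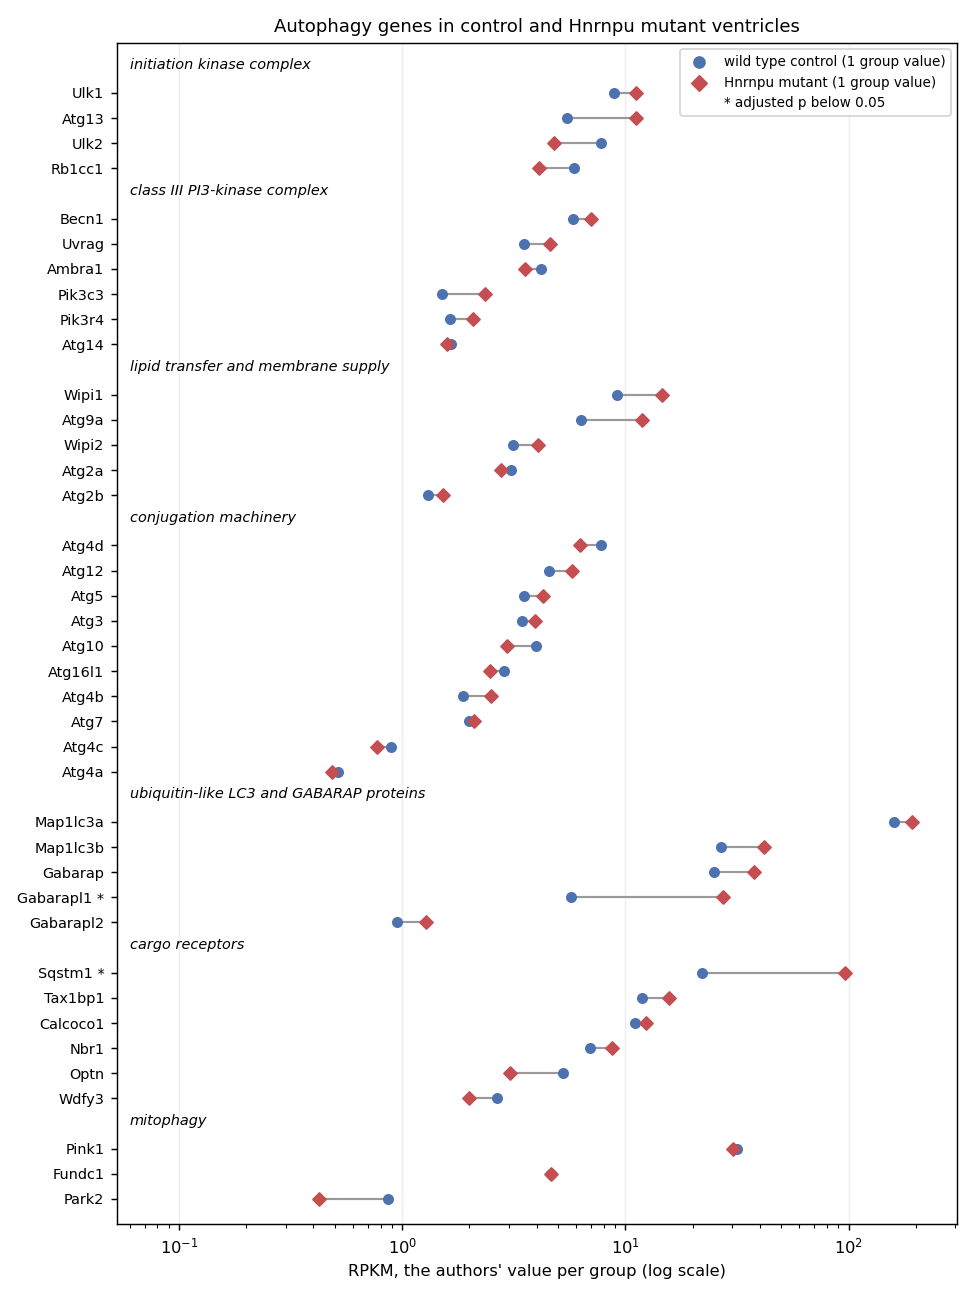
RPKM of the 39 autophagy genes on a log axis, grouped by role, with 1 value by the authors for control (circles) and for mutant (diamonds) and a line joining them. The lines of Gabarapl1 (5.72 to 27.4 RPKM) and Sqstm1 (22.0 to 95.9 RPKM) are the only starred ones, and the circle of Fundc1 is hidden behind its diamond.

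The LC3 and GABARAP proteins were the most abundant group, with summed levels of 217 RPKM in the controls and 300 RPKM in the mutants over 5 genes. All 5 were above control, and Gabarapl1 alone was called. Map1lc3a, which codes for LC3A, was the most abundant member in both groups, at 159 RPKM in the controls and 192 RPKM in the mutants. Map1lc3b, the gene of LC3B, the form most used as a marker of autophagosomes, was at 26.8 RPKM in the controls and 41.7 RPKM in the mutants. Gabarap, the founding member of its branch, was at 24.8 and 37.7 RPKM. For these 3 genes the authors' deposited table gives p = 0.694, 0.224 and 0.251, so none of them was called. The implied intervals for Map1lc3b (-0.39 to 1.67) and Gabarap (-0.43 to 1.64) hold 0 and also reach above a doubling.

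Gabarapl1 made up 2.63% of the summed RPKM of the 5 genes in the controls and 9.13% in the mutants, while Map1lc3a made up 73.2% and 64.0%. Within the GABARAP branch alone, Gabarapl1 held 18.2% in the controls and 41.3% in the mutants, and Gabarap 78.8% and 56.8%. These shares rest on 1 value per group and were not tested apart from the call on Gabarapl1. They also depend on the level of Gabarapl2, which is uncertain for the reason given next.

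Gabarapl2, the third gene of the branch, was listed at 0.945 RPKM in the controls and 1.28 RPKM in the mutants. Its level is uncertain, because 19.4% of the words of its transcript also occur in transcripts of 6 other genes. The processed pseudogene that shares most of these words, Gm3724, was itself listed at 7.37 RPKM in the controls and 12.8 RPKM in the mutants, with adjusted p = 0.704 in the authors' deposited table. How reads with several matches were counted is not given in the sources used here. Gabarapl1 shares a like part of its words, 19.3%, with 1 other gene, the antisense gene 1700101I11Rik, and none with the other LC3 and GABARAP genes. No level was found for 1700101I11Rik under that symbol, unlike for Gm3724. The part of the Gabarapl1 level read from these words is thus uncertain, to an extent that could not be compared with Gabarapl2. By the coordinates of the authors' rows alone, Map1lc3b overlaps Galnt2 on the same strand. Galnt2 was listed at 7.07 RPKM in the controls and 12.9 RPKM in the mutants, and its span was not checked against another annotation.

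**Figure D2:**
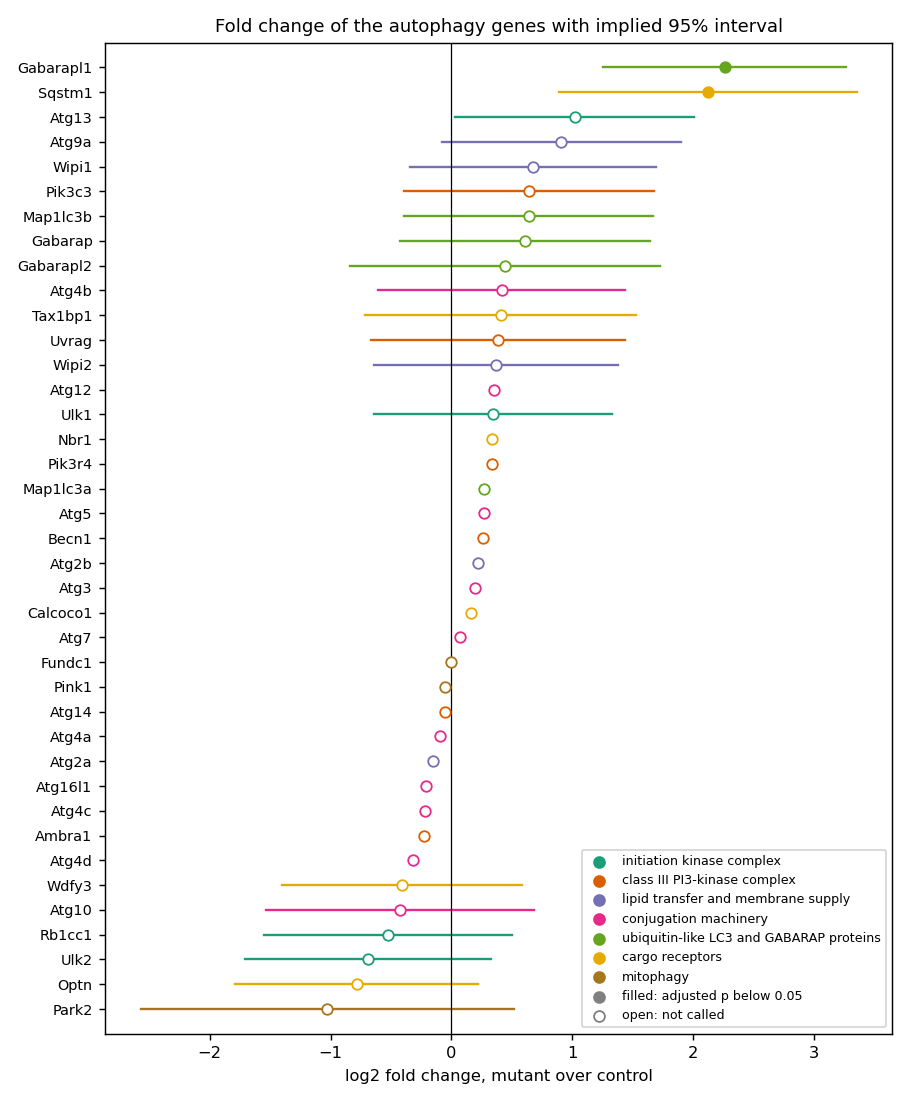
Log2 fold change of mutant over control for the 39 members, ordered by size and coloured by role, with a line for the implied 95% interval where p was below 0.5. Filled points, at 2.26 for Gabarapl1 and 2.12 for Sqstm1, passed the test, and the other members lie between -1.03 and 1.02.

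None of the 5 cargo receptors other than Sqstm1 was called, or had an unadjusted p below 0.05. Optn, optineurin, which takes part in mitophagy, was at 5.25 RPKM in the controls and 3.05 RPKM in the mutants, with a fold of 0.581 and p = 0.127 in the authors' deposited table. Tax1bp1 was at 11.8 and 15.7 RPKM, Calcoco1 at 11.0 and 12.3 RPKM, and Nbr1, a receptor with domains like those of p62, at 6.92 and 8.71 RPKM. Wdfy3, the large adaptor ALFY that works with p62 on aggregates, was at 2.66 RPKM in the controls and 2 RPKM in the mutants. Summed over the 6 receptors, the level was 59.6 RPKM in the controls and 138 RPKM in the mutants, and Sqstm1 accounted for 73.9 RPKM of that difference.

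The genes of the initiation kinase complex lay on both sides of control and none was called. Atg13, the regulatory subunit that binds the ULK kinases, was listed at 5.47 RPKM in the controls and 11.1 RPKM in the mutants. The authors' deposited table gives it a fold of 2.03 with p = 0.043 and adjusted p = 0.37, and the implied interval ran from 0.03 to 2.01 on the log2 scale. Ulk1, the kinase, was at 8.84 RPKM in the controls and 11.2 RPKM in the mutants, and its relative Ulk2 at 7.73 and 4.78 RPKM. Rb1cc1, which codes for the scaffold FIP200, was at 5.88 RPKM in the controls and 4.09 RPKM in the mutants. For Ulk2 the implied interval was -1.71 to 0.32 and for Rb1cc1 -1.55 to 0.50, and both hold 0. The pseudogene Gm13961, at 1.31 and 1.24 RPKM, shares 14.3% of the words of Rb1cc1.

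The symbol not found was Atg101, the partner that stabilises Atg13. RefSeq lists 9430023L20Rik as an older symbol of Atg101, and the row of that name falls outside the rule. It was listed at 6.21 RPKM in the controls and 16.0 RPKM in the mutants. The authors' deposited table gives it a fold of 2.58, p = 0.00837 and adjusted p = 0.142, without a call. Its fold was above that of every member except Gabarapl1 and Sqstm1.

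The class III PI3-kinase complex, whose lipid product recruits later factors, had log2 fold changes from -0.23 to 0.65 with none called. Pik3c3, the catalytic subunit VPS34, had the highest fold of the 6 genes, from 1.5 RPKM in the controls to 2.34 RPKM in the mutants (p = 0.221 in the authors' deposited table). Becn1, the gene of beclin 1, was at 5.84 and 7 RPKM, and Pik3r4, the regulatory subunit VPS15, at 1.64 and 2.07 RPKM. Atg14 and Uvrag, which define the alternative forms of the complex, were at 1.65 and 3.50 RPKM in the controls and at 1.59 and 4.58 RPKM in the mutants. Ambra1, a beclin 1 regulator, had the lowest fold, at 4.17 RPKM in the controls and 3.56 RPKM in the mutants. Cntd1, in the opposite orientation, overlaps Becn1 and had 2.81 and 3.01 RPKM.

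Among genes for lipid transfer and membrane supply, 4 of 5 were above control and none was called. Atg9a, a membrane protein that seeds the autophagosome, was at 6.31 RPKM in the controls and 11.9 RPKM in the mutants, with a fold of 1.88 and p = 0.0719 in the authors' deposited table. Wipi1, which binds the lipid made by VPS34, was at 9.12 and 14.6 RPKM, and its relative Wipi2, which brings in the conjugation machinery, at 3.13 and 4.05 RPKM. The lipid transfer proteins Atg2a and Atg2b were at 3.07 and 1.3 RPKM in the controls and at 2.76 and 1.52 RPKM in the mutants. The implied interval of Atg9a was -0.08 to 1.90 on the log2 scale, and 43.5% of the words of its transcript occur in other genes, chiefly in the overlapping Gm29253 (42.1%).

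The 10 conjugation genes had the median log2 fold change nearest to 0 among the roles, at -0.01, with 5 above and 5 below control and none called. The lowest fold was that of Atg10, the enzyme that joins Atg12 to Atg5, at 3.96 RPKM in the controls and 2.95 RPKM in the mutants. The highest was that of Atg4b, a protease that trims LC3 before conjugation, at 1.88 and 2.5 RPKM. Atg7, the activating enzyme for both conjugation steps, was at 1.99 and 2.09 RPKM, and Atg3, which passes LC3 to its lipid, at 3.45 and 3.95 RPKM. The products of Atg5, Atg12 and Atg16l1 form the complex that directs conjugation to the membrane. Atg5 was at 3.52 and 4.25 RPKM, Atg12 at 4.53 and 5.78 RPKM, and Atg16l1 at 2.85 and 2.46 RPKM. The other proteases were Atg4d, at 7.76 and 6.24 RPKM, Atg4c, at 0.894 and 0.767 RPKM, and Atg4a, at 0.516 and 0.484 RPKM. Atg4a is uncertain, since 71.6% of the words of its transcript occur in other genes, chiefly in Atg4a-ps, which was listed at 1.53 RPKM in the controls and 2.64 RPKM in the mutants. Atg4b and Atg4d overlap Thap4 and Kri1 on the other strand, at 3.76 and 6.34 RPKM in the controls and at 4.87 and 4.02 RPKM in the mutants.

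The 3 mitophagy genes were all below control by their values and none was called. Pink1, the kinase that accumulates on damaged mitochondria, was the second most abundant member in the controls, at 31.5 RPKM, and was at 30.4 RPKM in the mutants (fold 0.964, p = 0.917 in the authors' deposited table). Park2, the ubiquitin ligase parkin that acts with it, was at 0.860 RPKM in the controls and 0.422 RPKM in the mutants, the lowest fold of all members. The authors' deposited table gives a fold of 0.491 with p = 0.192. Its implied interval was wide, from -2.57 to 0.52 on the log2 scale, and a repeated row of the same symbol was listed at 0.176 and 0.114 RPKM. Fundc1, a receptor of the outer mitochondrial membrane, was at 4.64 and 4.63 RPKM.

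Over all 39 members the median log2 fold change was 0.26, with 24 above and 15 below control. Over the 11292 rows with a mean of at least 1 RPKM it was 0.08, with 54.6% above control. The lower and upper quartiles of the members were -0.18 and 0.41, against -0.42 and 0.57 in those rows. Apart from Gabarapl1, Sqstm1, Atg13 and Park2, the fold of the other 35 members lay between 0.5 and 2. The summed level of the members was 414 RPKM in the controls and 592 RPKM in the mutants, and of this difference of 177 RPKM, 41.7% came from Sqstm1, 18.6% from Map1lc3a and 12.2% from Gabarapl1. The smallest rise called in the table between 1 and 50 RPKM was 3.03-fold and the smallest fall 3.07-fold, so no smaller change at these levels was called, and a member without a call is not shown to be unchanged.

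**Figure D3:**
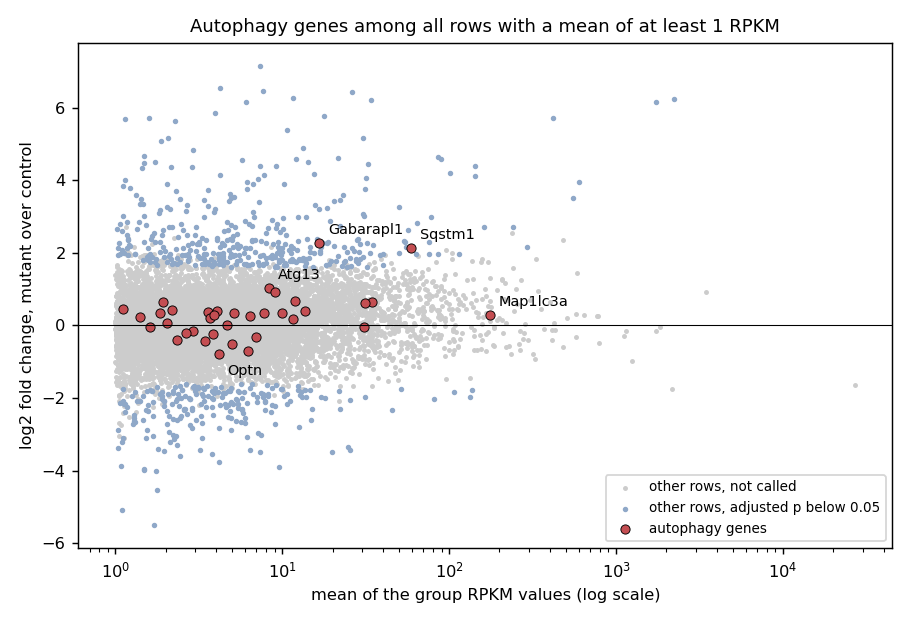
Log2 fold change of mutant over control against the mean of the group RPKM values (log axis) for all rows with a mean of at least 1 RPKM, with the 36 autophagy genes at that level in red. Gabarapl1 and Sqstm1 lie among the rows called higher, and the other members lie in the band of rows not called.

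Of 70 other genes of the pathway, 68 were matched to rows, 4 of them by an older symbol. Among these 68 the test gave 6 rises and no fall and left 62 without a call. The share called higher was 8.82%, against 2.03% of all rows and 3.35% of rows with a mean of at least 1 RPKM. The share called lower was 0, against 1.48% and 1.93%. A mean of at least 1 RPKM was reached by 62 of the 68. The list was chosen with earlier results of these data known, so these shares are a description and not a test. The authors' deposited table lists 10 of the 68 (14.7%) as higher and 3 (4.41%) as lower at an unadjusted p below 0.05, against 6.4% and 6.2% of all rows. The receptors and adaptors of selective autophagy held 3 of the 6 rises among 20 genes. By value 18 of the 20 were above control, against 54.6% of rows with a mean of at least 1 RPKM. That count includes Calcoco2, which was close to absent, at 0 RPKM in the controls and 0.0111 RPKM in the mutants. It also includes Ncoa4, at 0.114 RPKM in the controls and 0.157 RPKM in the mutants. Both had a mean below the 1 RPKM that the share of 54.6% requires. Fusion with the lysosome gave 0 calls among 14 genes in the authors' deposited table and 1 gene with an unadjusted p below 0.05, with a median log2 fold change of 0.28.

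Bnip3, a mitophagy receptor of the outer mitochondrial membrane, rose from 5.34 to 24.1 RPKM. Stbd1, which tethers glycogen to GABARAP proteins, rose from 4.32 to 19.0 RPKM. Hspb8, a small heat shock protein that works with Bag3 in the removal of misfolded proteins, rose from 35.0 to 136 RPKM. For these 3 the authors' deposited table gives adjusted p = 0.00217, 0.00235 and 0.0403. Bnip3l, the close relative of Bnip3, was at 5.80 and 9.07 RPKM, and Bag3 at 15.4 and 39.6 RPKM, and neither was called, with adjusted p = 0.743 and 0.174 in the authors' deposited table.

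Upstream, Atf4, a transcription factor of the integrated stress response that is known to activate autophagy genes, rose from 25.7 to 125 RPKM. Bcl2l1, also upstream, whose product Bcl-xL binds beclin 1, rose from 4.21 to 14.8 RPKM. Trp53inp1, which binds LC3 and GABARAP proteins and was listed under autophagosome biogenesis, rose from 1.82 to 6.55 RPKM. Adjusted p-values of these 3 genes were 0.00562, 0.0208 and 0.0136 in the authors' deposited table. Foxo3, a forkhead factor known to act on autophagy genes in muscle, was at 2.25 and 6.30 RPKM, with p = 0.00326 and adjusted p = 0.0758 in the authors' deposited table and so without a call. Tfeb, the E-box factor of lysosomal genes, was at 4.20 and 4.49 RPKM, with p = 0.854 in the authors' deposited table.

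The remaining genes with an unadjusted p below 0.05 were not called. Ykt6, a SNARE of autophagosome fusion, was at 8.39 and 23.2 RPKM, and Prkab2, a subunit of AMP kinase, at 3.92 and 8.06 RPKM. Below control were Zkscan3, a repressor of autophagy genes, at 10 and 3.34 RPKM, Atg16l2, a relative of Atg16l1, at 3.61 and 1.37 RPKM, and Mitf, a relative of Tfeb, at 4.78 and 2.05 RPKM. Of these 5, Zkscan3 had the lowest adjusted p in the authors' deposited table, at 0.0642, and it was called as lower when the adjustment was limited to rows with a mean of at least 1 RPKM.

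**Figure D4:**
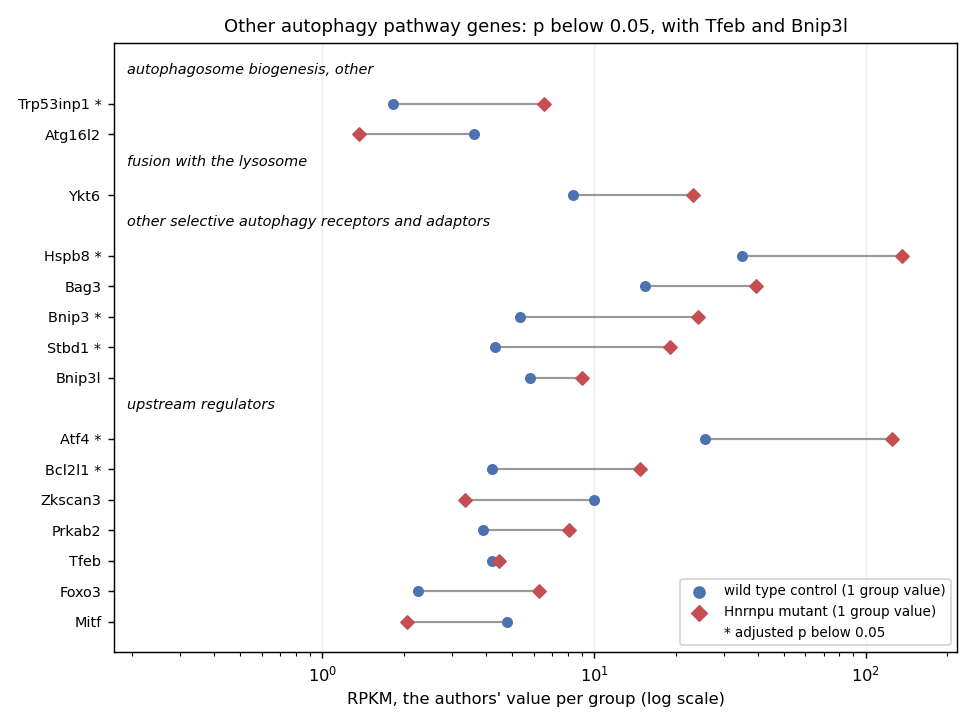
RPKM on a log axis for control (circles) and mutant (diamonds) for the 13 other pathway genes with an unadjusted p below 0.05, with Tfeb and Bnip3l for comparison. Stars mark the 6 called genes, led in level by Hspb8 (35.0 to 136 RPKM) and Atf4 (25.7 to 125 RPKM), and Tfeb lies at 4.20 and 4.49 RPKM.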

How the data were processed

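RNA from ventricles of 4 mice was extracted with Trizol and sequenced, per the labels' protocols. The deposited table holds 1 RPKM value by the authors per group, their fold (ratio) with its log2, and the p-value of their test with its adjustment, per the file headers. Per the submitters' processing notes, Bowtie 0.12.9, DESeq and mm9 were used, with no role stated; the annotation, the counter and any use of strand were not found in the labels or headers. Tests planned on values per animal could not be run, so the authors' test is the main result. Its p-values rest on 2 mice per group, 1 male and 1 female. Differences by animal, by sex and by technique cannot be told apart in that spread. In 10320 rows the ratio of RPKM values and the deposited fold were at most 0.971% apart, and the Benjamini-Hochberg adjustment computed again was at most 0.594% from theirs. The implied error is the log2 fold change over the normal score of p, for p below 0.5; it takes the estimate as normal, which could not be checked on these files, so the intervals are approximate. Words of 36 bases were compared with GENCODE M21 transcripts (GRCm38) on both strands. Members and lists were chosen with earlier results of these data known. Named genes were all members, other pathway genes called or at an unadjusted p below 0.05, and Atf4, Tfeb, Foxo3, Bnip3 and Bnip3l. Python 3.11.15, scipy 1.17.1 and pandas 2.3.3 were used. Alternatives were other thresholds, filters on RPKM, pseudocounts and centring.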

Additional observations from a re-analysis of the deposited data

How the results depend on the processing

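The 2 members called higher, Gabarapl1 and Sqstm1, were also called at an adjusted p below 0.1 and when the adjustment was recomputed over rows with a mean of at least 1 or at least 5 RPKM. At an adjusted p below 0.01, 1 member, Gabarapl1, was called. The lower row of the repeated symbol Park2 left the count at 2, and no member was called lower under any of these settings. Of the other pathway genes, 6 were called higher, 8 at an adjusted p below 0.1, 5 with the filter at 5 RPKM and 3 at an adjusted p below 0.01. The filter at 5 RPKM left out Trp53inp1, with a mean of 4.185 RPKM, and the other 5 stayed called. Called lower there was 1, Zkscan3, in place of 0, at an adjusted p below 0.1 and with either filter. With a pseudocount of 0.1 or 1, or with centring on the median of 0.08, the 60 values of the 20 members with an implied error of their own stayed within it, and the 57 values of the other 19 within the median implied error of 0.52. Centring moves every member by the same 0.08, below the smallest implied error of 0.50, so for centring this could not fail. A pseudocount mostly shrinks a fold change, so it could hardly fail either where the log2 fold change is smaller than the error used. That was so for all 19 members without an error of their own, the largest in size being 0.35 for Atg12. The largest shift was 0.64, for Park2 with a pseudocount of 1 (-1.03 to -0.39), against its wide implied error of 0.79. After centring, 23 members were above and 16 below control. The median over members was 0.27 with the filter at 1 RPKM, 0.22 with a pseudocount of 1 and 0.18 after centring. No paired analysis was possible because the table holds 1 value per group, and leaving out a replicate was not run for the same reason. Depth is known only from the read steps.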
